A study of Fragaria x ananassa with 3 samples.

Results

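miR167 was represented in the small RNA table of stored strawberry fruit by 6 family names, 4 of the guide strand and 2 of its partner strand. A new candidate, PC-5p-161243_22, was taken with them because it overlaps one of the partner strands, which gave 7 of the 1310 miRNA names listed. The degradome table held 1 row with a miR167 name among its 152 rows, and the target of that row is gene30394-v1.0-hybrid, annotated as auxin response factor 8.

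The fruit of Fragaria x ananassa cultivar Zhangji was harvested at commercial maturity and kept in trays inside plastic bags at 20 °C. The 24 h library was made from small RNAs of fruit stored for 24 h, and the 0 h library from fruit that was not stored. A degradome library, in which the 5' ends of cleaved transcripts are sequenced, was made from a mixture of both. Each of these 3 libraries is a single one, so no difference between storage times could be set against a spread between replicates, and the number of fruits behind a library is not stated.

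A plant miRNA is cut as a duplex from a hairpin transcript, the guide strand enters an ARGONAUTE protein and the partner strand is usually degraded. Guide strands pair almost fully with their target mRNAs, which are then cut at a fixed place within the paired stretch. In Arabidopsis miR167 targets ARF6 and ARF8, transcription factors that bind auxin response elements in promoters and act in flower maturation, and ARF8 there also restrains fruit growth before fertilization.

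The sequences are given first because the guide names differ only at their 3' end. They are written as DNA from 5' to 3', with the seed (bases 2 to 8) in capitals.
mdm-miR167c: tGAAGCTGccagcatgatcta
mdm-miR167g_1ss21AG: tGAAGCTGccagcatgatctg
mdm-miR167b_R+1_1ss21AC: tGAAGCTGccagcatgatctca
mdm-miR167b_R+1_1ss21AG: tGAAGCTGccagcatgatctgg
zma-MIR167j-p3_1ss14CT: tCAGATCAtgtggtagtttca
tcc-MIR167a-p3_1ss2TC: aCTGGATCatgtggtagcttc
PC-5p-161243_22: cTCAGATCatgtggtagtttc

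The 4 guide names shared their first 20 bases and the seed GAAGCTG, and no other of the 1310 names had that seed. Counted from the 5' end of mdm-miR167c, mdm-miR167g_1ss21AG carried A21G and was of the same length of 21 nt. mdm-miR167b_R+1_1ss21AC carried A21C and was 1 base longer, and mdm-miR167b_R+1_1ss21AG carried A21G and was 1 base longer. All 21 bases of mdm-miR167g_1ss21AG therefore begin mdm-miR167b_R+1_1ss21AG. The 3 partner names each had a seed that no other name shared. PC-5p-161243_22 and zma-MIR167j-p3_1ss14CT had a run of 20 bases in common, while zma-MIR167j-p3_1ss14CT and tcc-MIR167a-p3_1ss2TC had a run of 13.

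The strands lay on 3 scaffolds of the Fragaria vesca genome 1.0, the diploid woodland strawberry to which the reads had been mapped, all on the plus strand. The hairpin stretches are shown because guide and partner names were placed together on them, and capitals mark the bases where the names listed for that stretch lie.
Stretch within scf0513168:2505727-2505987: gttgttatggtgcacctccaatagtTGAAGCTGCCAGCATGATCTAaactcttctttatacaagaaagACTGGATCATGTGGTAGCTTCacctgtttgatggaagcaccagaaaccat
Stretch within scf0513093:477163-477424: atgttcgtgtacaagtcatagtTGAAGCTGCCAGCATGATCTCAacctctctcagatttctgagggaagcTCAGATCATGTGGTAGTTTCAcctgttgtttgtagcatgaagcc
Stretch within scf0513174:509827-510088: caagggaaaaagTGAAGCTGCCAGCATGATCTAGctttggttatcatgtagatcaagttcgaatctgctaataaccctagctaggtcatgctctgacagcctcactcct

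On scf0513168 the stretch of 118 bases held mdm-miR167c without mismatch, at scf0513168:2505847-2505867, and tcc-MIR167a-p3_1ss2TC without mismatch at scf0513168:2505890-2505910. mdm-miR167g_1ss21AG had been placed on the same bases with 1 mismatch, A21G from genome to miRNA. The stretch folded with a minimum free energy of -51.4 kcal/mol, and 19 bases of the guide paired with bases of the partner strand. On scf0513093 the stretch of 114 bases held mdm-miR167b_R+1_1ss21AC and zma-MIR167j-p3_1ss14CT without mismatch, folded with -52.2 kcal/mol and also had 19 guide bases paired with the partner. PC-5p-161243_22 lies there too, 1 base upstream of zma-MIR167j-p3_1ss14CT. Its name places it on the 5' arm, but 18 of its 21 bases paired with bases upstream of it in the miR167 hairpin and none with bases downstream, so that it is treated here with the partner strands.

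On scf0513174 the stretch of 109 bases folded with -48.7 kcal/mol. mdm-miR167b_R+1_1ss21AG had been placed there with 1 mismatch, again A21G, while all 21 bases of mdm-miR167c occurred there without mismatch. mdm-miR167c thus matched 2 of the 3 scaffolds, and its reads cannot be divided between them. Neither of the 2 forms with G at position 21 matched any of the 3 stretches exactly. The other 5 names did. No further name of the table shared a run of 15 bases or more with these stretches. mdm-miR167b_R+1_1ss21AC was listed for 2 precursors, and the position of the second is not analysed here. Whether these stretches lie in annotated genes is not analysed here either.

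**Figure D1:**
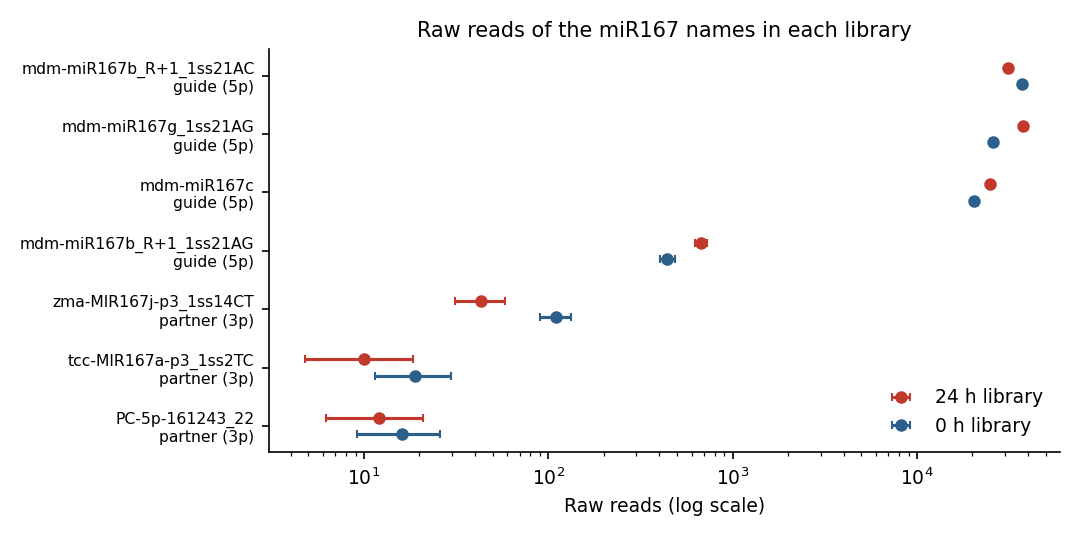
Raw reads (log scale) of the 7 miR167 names in the 24 h library and the 0 h library, with exact 95% Poisson intervals that cover counting error only. The 24 h point is left of the 0 h point for mdm-miR167b_R+1_1ss21AC and the 3 partner names, and right of it for the other guide names.

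The guide forms changed in opposite directions, since mdm-miR167b_R+1_1ss21AC was lower at 24 h than at 0 h and the other 3 guide names were higher. All 3 partner names had fewer reads at 24 h. The folds below are the authors' normalized reads at 24 h over those at 0 h. Their 95% intervals are exact conditional binomial intervals of the raw reads, and they cover counting error only.

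mdm-miR167b_R+1_1ss21AC, the form with a listed target, had 31362 raw reads in the 24 h library, against 37021 in the 0 h library. In normalized reads these were 26538 at 24 h and 33933 at 0 h, a fold of 0.782 (interval 0.770 to 0.794) and a log2 fold of -0.35. It was the form with the most reads of the family at 0 h, ranked 8 of all names, and ranked 10 at 24 h, where another form exceeded it.

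That other form, mdm-miR167g_1ss21AG, had 37618 raw reads in the 24 h library, against 25764 in the 0 h library. Its normalized reads were 31832 at 24 h and 23615 at 0 h, a fold of 1.35 (interval 1.33 to 1.37) and a log2 fold of 0.43. With rank 9 at 24 h and 11 at 0 h it became the form of the family with the most reads.

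mdm-miR167c, the form that matches 2 of the scaffolds, had 24796 raw reads in the 24 h library, against 20490 in the 0 h library, and 20982 and 18781 normalized reads at 24 h and 0 h. The fold was 1.12 (interval 1.10 to 1.14), the smallest change of the 4 guide names on the log2 scale (0.16). It ranked 13 in both libraries.

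mdm-miR167b_R+1_1ss21AG, the longer of the forms with G, had 674 raw reads in the 24 h library, against 442 in the 0 h library, with a fold of 1.41 (interval 1.25 to 1.59) and a log2 fold of 0.49. Its interval included the fold of mdm-miR167g_1ss21AG, whose 21 bases it begins with. Of every 1000 reads of that shorter form there were 17.9 of the longer one at 24 h against 17.2 at 0 h, and the ratio was 1.04 (interval 0.925 to 1.18). A change of the longer form relative to the shorter one was thus not detectable at this depth.

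The partner strands had few reads. zma-MIR167j-p3_1ss14CT had 43 raw reads in the 24 h library, against 110 in the 0 h library, and 36 and 101 normalized reads at 24 h and 0 h. Its fold was 0.356 (interval 0.248 to 0.518) and its log2 fold -1.49, the largest change among the 7 names. The bound of the interval nearest to 1 does not reach 2-fold.

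tcc-MIR167a-p3_1ss2TC had 10 raw reads in the 24 h library, against 19 in the 0 h library, a fold of 0.471 in normalized reads and a log2 fold of -1.09. Its interval (0.202 to 1.10) included 1, so that this depth could not show a difference, although the point value lies past 2-fold. PC-5p-161243_22 had 12 raw reads in the 24 h library, against 16 in the 0 h library, with a fold of 0.667 (interval 0.299 to 1.56). This candidate, too, gave an interval that included 1.

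All 7 names passed the filter on low values, 10 raw reads or more in either library, as did 1248 of the 1310 names in all. By the threshold of a log2 fold below -1, 2 of the 7 were lower at 24 h, both partner strands, and the same threshold was passed by 3.69% of all names tested. Without scaling, or scaled to the total of listed miRNAs, only 1 of the 7 passed it, since tcc-MIR167a-p3_1ss2TC then had a log2 fold of -0.93 or -0.92. None of the 7 had a log2 fold above 1, which 6.25% of all names had. With reads not scaled at all, the names above and below 2-fold among all tested were 96 and 35, and with reads scaled to the total of listed miRNAs 109 and 35, against 78 and 46 with the authors' normalization.

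The counting interval lay wholly below 1 for 2 of the 7 names (mdm-miR167b_R+1_1ss21AC and zma-MIR167j-p3_1ss14CT), where 7.21% of all names had such an interval. It lay wholly above 1 for 3 of the 7, the guide names other than mdm-miR167b_R+1_1ss21AC, where 9.46% of all names had one. Without scaling, or scaled to the total of listed miRNAs, the intervals of all names tested lay wholly above 1 for 157 and wholly below it for 61, against 118 and 90 with the authors' normalization. The intervals of abundant names are narrow, and a name with as many reads as these passes such a limit with a small fold. The median log2 fold was -0.35 over the 7 names and 0 over all names tested. The median of the 7 is simply the value of mdm-miR167b_R+1_1ss21AC. These names mix guide and partner strands and overlap in sequence, so that it does not describe the family as a whole. The summed normalized reads of all 7 gave a fold of 1.04.

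**Figure D2:**
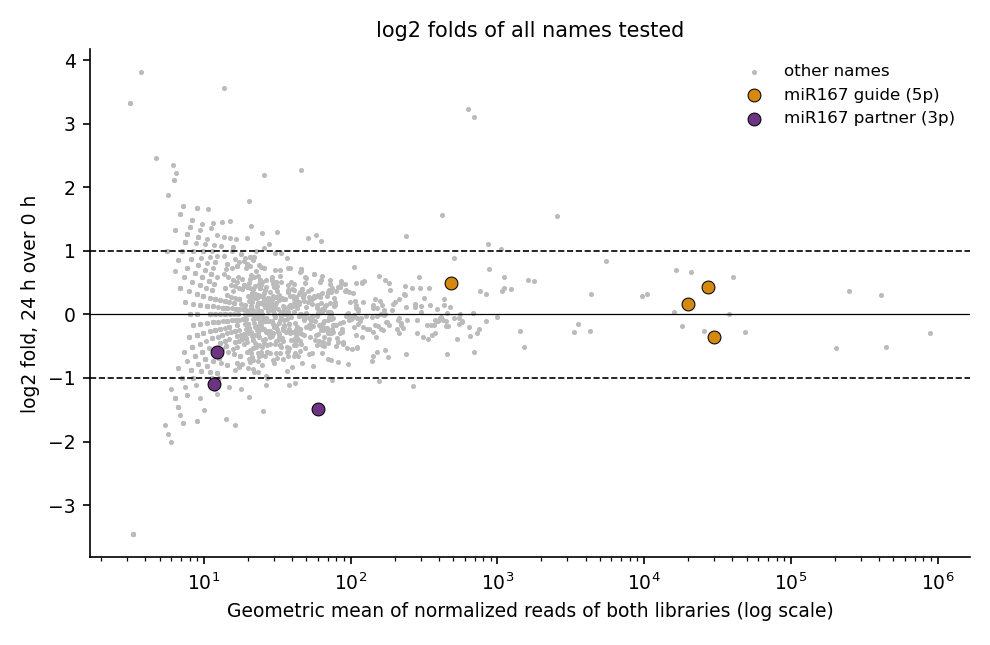
log2 fold of 24 h over 0 h against the geometric mean of normalized reads of both libraries (log scale) for the 1248 names tested, with dashed lines at 2-fold. The guide names lie within 2-fold, with mdm-miR167b_R+1_1ss21AC below 0 and the other 3 above it, and 2 of the 3 partner names lie below -1.

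Together the 4 guide names held 94450 raw reads in the 24 h library, against 83717 in the 0 h library, or 3.15% (interval 3.13% to 3.17%) of the listed miRNA reads at 24 h and 2.78% (interval 2.77% to 2.80%) at 0 h (Clopper-Pearson). In raw reads of both libraries miR167 ranked 3 of 31 known families. The summed normalized reads were 79922 at 24 h and 76734 at 0 h, a fold of 1.04 (interval 1.03 to 1.05). The sum combined parts of opposite direction, since the forms with G gave a fold of 1.35 and mdm-miR167b_R+1_1ss21AC a fold of 0.782. With only the 2 guide names that match a genome stretch without mismatch, the fold of the sum was 0.901, on the other side of 1.

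The make-up of the guide reads can be compared without any scaling between libraries, because each share is taken within one library. mdm-miR167b_R+1_1ss21AC made up 33.2% of the guide reads at 24 h (interval 32.9% to 33.5%) and 44.2% at 0 h (interval 43.9% to 44.6%). mdm-miR167g_1ss21AG made up 39.8% at 24 h (interval 39.5% to 40.1%) and 30.8% at 0 h (interval 30.5% to 31.1%). The order of these forms was thus opposite in the 2 libraries. mdm-miR167c held 26.3% at 24 h (interval 26.0% to 26.5%) and 24.5% at 0 h (interval 24.2% to 24.8%), and mdm-miR167b_R+1_1ss21AG held 0.714% at 24 h and 0.528% at 0 h. The intervals of the libraries did not overlap for any of the 4 forms. The shares are parts of 1 whole and so not independent, and with this many reads even a small difference separates such intervals.

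There were 0.834 reads of mdm-miR167b_R+1_1ss21AC per read of mdm-miR167g_1ss21AG at 24 h against 1.44 at 0 h, and the ratio was 0.580 (interval 0.568 to 0.593). Against mdm-miR167c the same form gave 1.26 reads per read at 24 h against 1.81 at 0 h, and the ratio was 0.700 (interval 0.684 to 0.717). Reads of mdm-miR167b_R+1_1ss21AC and mdm-miR167c thus lay closer together at 24 h. The forms that share a 21 nt length lay further apart at 24 h. There were 1.52 reads of mdm-miR167g_1ss21AG per read of mdm-miR167c at 24 h against 1.26 at 0 h, and the ratio was 1.21 (interval 1.18 to 1.24). Variation between fruits or between library preparations is not part of these intervals.

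**Figure D3:**
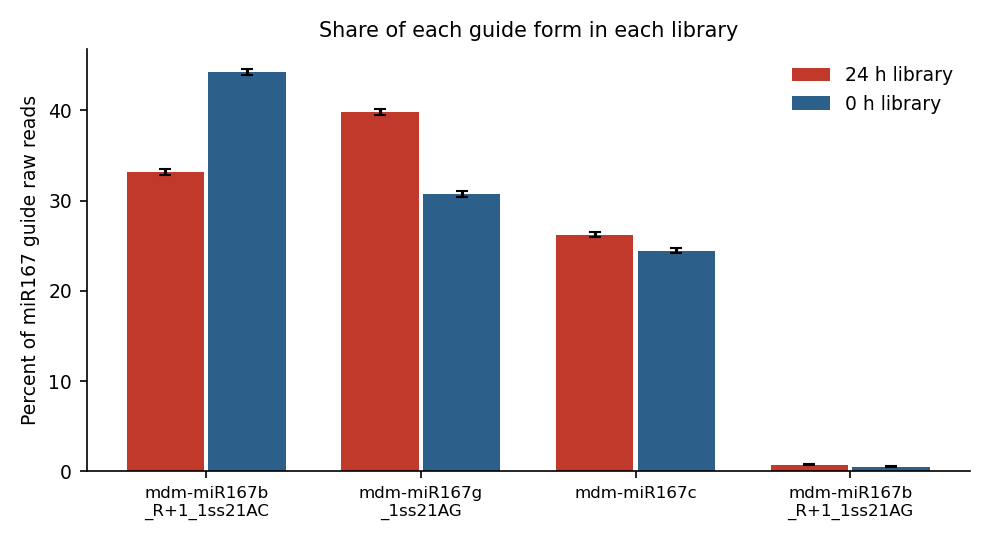
Share of each of the 4 guide forms in the miR167 guide reads, in percent, for the 24 h and the 0 h library, with exact 95% Clopper-Pearson intervals as error bars. mdm-miR167b_R+1_1ss21AC was the largest form at 0 h (44.2%) and mdm-miR167g_1ss21AG at 24 h (39.8%).

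To see whether such a split was common, the log2 folds were compared within every set of names that share their first 20 bases and reach 100 raw reads in either library. There were 9 such sets. The range within the miR167 set was 0.85, against 0.39 in the next widest set, which holds 3 new candidates. The miR167 set was also the only one of the 9 with counting intervals on both sides of 0, with 1 name below and 3 above. It has 4 names where the other sets have 2 or 3, and a range tends to widen with the number of names. Most names of the other sets also have fewer reads than the 3 abundant miR167 forms, and wider intervals. Many of those sets could hardly show both sides, so the comparison cannot settle whether such a split was common. The miR166 set is an exception, with intervals narrow enough to show either side. The abundant guide forms of miR166, which targets HD-ZIP III transcription factors, were both higher at 24 h, with log2 folds of 0.53 for mdm-miR166a_R+1 and 0.31 for mdm-miR166e. For miR164, which targets NAC genes, mdm-miR164e had -0.28 and mdm-miR164d_1ss21AC -0.04.

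The width of the range depended on the reads required, since names with few reads scatter widely. With at least 10 raw reads there were 58 sets, miR167 ranked 13 by range, and the widest other set spanned 3.28. With at least 1000 raw reads only 2 sets were left and miR167 was the wider. When names were grouped by their seed (25 sets), miR167 ranked 2. The miR156 set of that grouping had 4 names, with 3 intervals below 0 and 0 above. Its miR166 set had 3 names, with all 3 intervals above 0. In each of these groupings miR167 was the only set with intervals on both sides. These groupings differ in depth and in the number of names from set to set, and they describe these 2 libraries only.

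**Figure D4:**
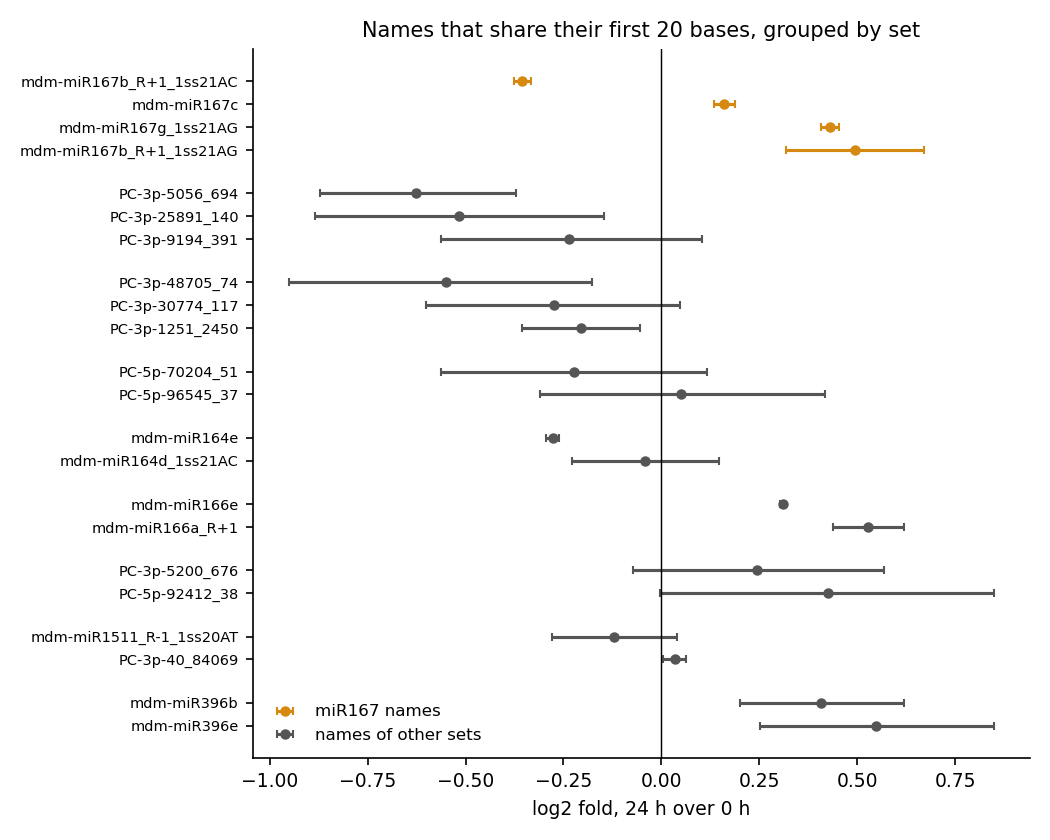
log2 fold of 24 h over 0 h of each name in the 9 sets that share their first 20 bases and reach 100 raw reads in either library, with 95% counting intervals. The miR167 names span from -0.35 to 0.49, and only their intervals lie on both sides of 0. The miR167 set has 4 names and the other sets 2 or 3, most of them with fewer reads.

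The 3 partner names together held 65 raw reads in the 24 h library, against 145 in the 0 h library, with 54 and 133 normalized reads at 24 h and 0 h and a fold of 0.406 (interval 0.304 to 0.558). Most of these raw reads came from zma-MIR167j-p3_1ss14CT, 43 at 24 h against 110 at 0 h. The intervals of the other 2 partner names each included 1. Partner reads were thus rare in both libraries, with 1453 guide reads per partner read at 24 h and 577 at 0 h. In the hairpin of scf0513093 there were 1.75 partner reads per 1000 reads of mdm-miR167b_R+1_1ss21AC at 24 h (interval 1.32 to 2.28) and 3.40 at 0 h (interval 2.83 to 4.05). The ratio was 0.515 (interval 0.368 to 0.713), so that the partner strand was lower relative to its own guide strand, which was itself lower. These values count all reads of mdm-miR167b_R+1_1ss21AC, whichever of its 2 precursors they came from.

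In the hairpin of scf0513168 the partner strand tcc-MIR167a-p3_1ss2TC had 0.160 reads per 1000 reads of mdm-miR167c and mdm-miR167g_1ss21AG at 24 h (interval 0.0768 to 0.295) and 0.411 at 0 h (interval 0.247 to 0.642). The ratio was 0.390 (interval 0.162 to 0.882). Here the guide names were higher at 24 h and the partner had fewer reads. With mdm-miR167c alone, the form that the genome stretch encodes, the ratio was 0.435 (interval 0.181 to 0.983), whose upper bound is close to 1. These values count all reads of both guide names, although those of mdm-miR167c match scf0513174 as well and those of mdm-miR167g_1ss21AG match neither stretch exactly, so the ratio within this hairpin alone is not known.

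The share of PC-5p-161243_22 among the reads at the partner's place was not shown to change. There were 0.279 reads of this candidate per read of zma-MIR167j-p3_1ss14CT at 24 h against 0.145 at 0 h, and the ratio was 1.92 with an interval from 0.758 to 4.72.

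A minor-to-major read ratio was taken for the known precursors with 2 listed names, of which the less abundant is called minor here. The minor name is not always the partner strand, since the guide mdm-miR160e was minor to ptc-miR160e-3p. The counts and ranks below thus mix partner-to-guide and guide-to-partner ratios. A pair needed 10 raw reads or more of the minor name in either library, and 24 of 25 pairs of names were kept. Of these 24 pairs in 14 families, 13 had a lower minor-to-major ratio at 24 h and 11 a higher one, with a median log2 ratio of -0.06. Some names occur in more than 1 pair, such as osa-miR156h-3p_2ss9CT14T- and mdm-miR156a_L+1, so the pairs are not independent. The miR167 precursors ranked 1 and 3 from the lowest, with a log2 ratio of -1.47 for tcc-MIR167a-p3_1ss2TC against mdm-miR167g_1ss21AG and -1.12 for zma-MIR167j-p3_1ss14CT against mdm-miR167b_R+1_1ss21AC. Between them lay gma-miR396a-3p_L+1 against mdm-miR396b, at -1.46, from a family that targets growth-regulating factors. The counting interval lay wholly below 0 in 6 of the 24 pairs and wholly above it in 3. The wide interval of tcc-MIR167a-p3_1ss2TC, from -2.74 to -0.30, rests on 10 raw reads of the 24 h library and 19 of the 0 h library, so that its place in the order is not settled at this depth. The place also depended on the guide name taken as major, since the log2 ratio was -1.20 against mdm-miR167c and -1.36 against both guide names, each time 2 from the lowest, after gma-miR396a-3p_L+1.

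**Figure D5:**
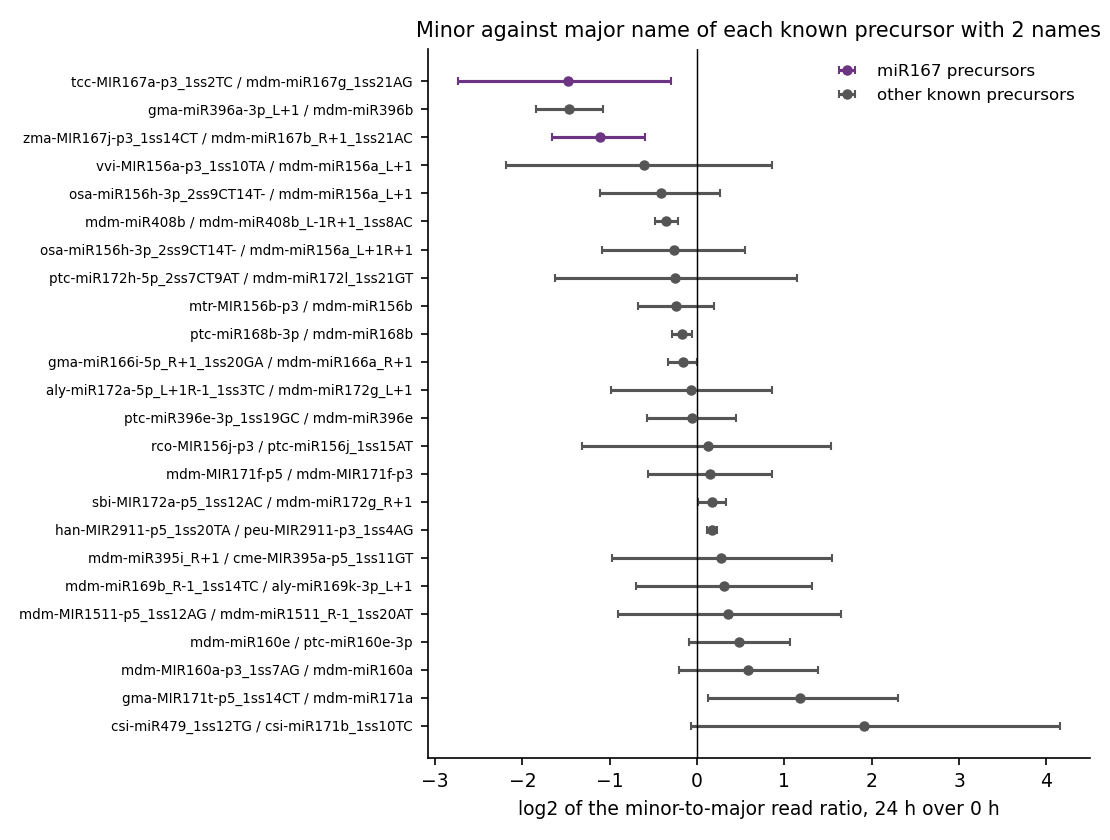
log2 of the minor-to-major read ratio at 24 h over that at 0 h for 24 pairs of names from known precursors with 2 listed names, ordered from the lowest, with 95% counting intervals. The miR167 precursors lie at -1.47 and -1.12, with intervals below 0.

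The degradome gave 1 target for the family. mdm-miR167b_R+1_1ss21AC was aligned to positions 2606 to 2628 of the transcript of gene30394-v1.0-hybrid, annotated as auxin response factor 8, with cleavage at position 2618. The signal there was 17 reads in the authors' unit, in category 0, the class in which the site alone carries the most reads of its transcript. Of the 111 distinct cleavage sites of the table this one ranked 9 by reads, where the highest had 110 reads and the median of the 30 category 0 sites was 8. The deposited p-value of 0.00125 was the lowest of the table, shared with 1 other row. The alignment score was 4, on a scale where mismatches and bulges add to the score, and 4 was also the highest of the table, held by 59 of the 152 rows. The degradome pooled both storage times, so it says nothing of a difference in cleavage between 24 h and 0 h, and the level of the mRNA was not measured.

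The alignment spans 23 positions for a miRNA of 22 nt, so 1 target base has no partner in the miRNA. Cleavage lay 10 bases before the end of the alignment, where 139 of the 151 rows with a readable range had 9 bases. All 118 rows whose alignment is as long as the miRNA had 9. Of the 15 rows whose alignment is 1 base longer than the miRNA, 9 had 10 bases and 6 had 9. Of the 9 rows with 10 bases, 6 belong to miR396 and growth-regulating factor genes. The other 3 guide names begin with the same 20 bases but have no row in the table, and no partner name has one. In all, 21 sites of the table are listed under more than 1 name, and how sites shared by similar names were assigned is not stated. No row has a score above 4, which the miR167 row already reaches. Whether the other guide forms would score higher at this site was not tested. A cleavage read does not show which of the guide forms directed the cut, so the single row does not assign the site to 1 form.

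Auxin response factors were also listed for miR160, which in Arabidopsis targets ARF10, ARF16 and ARF17. mdm-miR160a and mdm-miR160e, which have 1 sequence, were given for gene09733-v1.0-hybrid with 28 reads at position 1865 and for gene16844-v1.0-hybrid with 14 reads at position 1967. Both are annotated as auxin response factor 16. Their alignment scores were 0.5 and 1, lower than the 4 of the miR167 site, and their cleavage lay 9 bases before the alignment's end. With gene30394-v1.0-hybrid, the table thus held 3 genes with this annotation, 1 for miR167 and 2 for miR160.

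Of the 4 families of the auxin-related list (miR160, miR164, miR390 and miR393), 3 had names in the table, 8 names of 7 sequences, and no name of miR393 was listed. By the 2-fold threshold 1 of these 8 names was higher at 24 h and 0 were lower, where 6.25% of all names tested were higher and 3.69% lower. The median log2 fold was 0.39 over the 8 names and 0.14 over the 7 sequences, against 0 over all names tested. Summed over distinct sequences of both strands, miR160 had 552 raw reads in the 24 h library, against 403 in the 0 h library, a fold of 1.27 (interval 1.11 to 1.44). Most of these were reads of ptc-miR160e-3p, with 377 at 24 h against 316 at 0 h, a fold of 1.10 (interval 0.946 to 1.28). The guide sequence of mdm-miR160a and mdm-miR160e had 83 against 50, a fold of 1.56 (interval 1.07 to 2.22). The miR164 sum was 53134 at 24 h against 59361 at 0 h, a fold of 0.826 (interval 0.817 to 0.836). mdm-MIR160a-p3_1ss7AG, a partner strand, was the name past the threshold, with 92 raw reads in the 24 h library, against 37 in the 0 h library, and a log2 fold of 1.20, opposite in direction to the miR167 partner strands. mdm-miR390a, which acts on TAS3 transcripts whose small RNAs target other ARF genes in Arabidopsis, had 168 raw reads in the 24 h library, against 246 in the 0 h library, a fold of 0.631 (interval 0.515 to 0.770).

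Among known names that reach 1000 raw reads in either library, those with log2 folds nearest to that of mdm-miR167b_R+1_1ss21AC (-0.35) were mdm-miR156a_L+1 at -0.29, mdm-miR164e at -0.28 and mdm-miR535d_1ss7CT at -0.26. This likeness rests on 1 value per name from the same 2 libraries.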

How the data were processed

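The authors counted reads per miRNA name with ACGT101-miR 4.2, after mapping Illumina reads against miRBase and version 1.0 of the Fragaria vesca genome, and deposited these raw counts. Normalized reads are deposited as whole-number scores whose formula is not stated. They equal the raw count times 0.846 at 24 h and 0.917 at 0 h, within 1 read for 1305 and 1307 names at 24 h and 0 h. For the degradome the authors deposited an alignment score, a category, a p-value and the read signal at each site, made with CleaveLand 3.0 and ACGT301-DGE 1.0. Whether reads with a mismatch were added to a name is not stated either. The listed names sum to 2998588 raw reads in the 24 h library and 3006293 in the 0 h library.

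Each of the 1310 names was counted once, although the table has 1431 entries. Folds are 24 h over 0 h on normalized reads, for names with at least 10 raw reads in 1 library, and the threshold was 2-fold. For a count of 0 a floor of 3 raw reads was used, which no miR167 name needed. With 1 library per storage time samples could not be tested against each other. The 95% intervals come from raw reads multiplied by the factors, exact for single values and shares and, for ratios of 500 reads or more in the minor form, from the standard error on the log scale. PCR copies are not independent molecules, so the intervals cover counting error only. The interval procedure was tested only on simulated independent Poisson counts, the model it assumes. That test says nothing of PCR copies or of spread between libraries. Hairpin stretches come from the sequences the study listed for the genome, folded with RNAfold (ViennaRNA 2.7.2). One degradome row with an unreadable alignment range was left out of the distances.

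The miRNA names are all those of miR167 plus the overlapping candidate. The further names are those of the auxin-related list, the sets sharing 20 bases, the targets annotated as auxin response factors and the 3 abundant known names with the nearest log2 fold. These members and lists were chosen with earlier results of these data known. The ratio of both forms with G, the comparison of 21 nt forms, the comparison over known precursors and the names given from it were added after values were seen. The alternatives were raw reads, scaling by mappable or listed reads, TMM factors (edgeR 4.0.16), size factors (DESeq2 1.42.0), 1 added to the reads, and other filters and groupings. Python 3.11.15 with scipy 1.17.1 and R 4.3.3 were used.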

Additional observations from a re-analysis of the deposited data

How the results depend on the processing

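No paired analysis was possible because each storage time has 1 library. The direction of all 7 names was kept under raw reads without scaling, scaling by mappable reads, scaling by listed miRNA reads, TMM factors, size factors, 1 added to the reads and raw reads times the library factors, the last chosen after seeing the data. mdm-miR167b_R+1_1ss21AC ranged between log2 folds of -0.35 and -0.24 over these, mdm-miR167g_1ss21AG between 0.43 and 0.55, and zma-MIR167j-p3_1ss14CT between -1.47 and -1.35. Raw reads and listed reads shift the scale of the log2 folds upward by 0.12, and names with few reads move further because the normalized reads are whole numbers (PC-5p-161243_22 had -0.58 with the authors' normalization and -0.42 with raw reads). The count of names past 2-fold was 2, both lower, and became 1 with raw reads, with listed reads and with 1 added, each time by loss of tcc-MIR167a-p3_1ss2TC. Among all 1248 names tested, 46 were lower past 2-fold with the authors' normalization, and 35 with raw reads or with listed reads. The count was also 1 with at least 50 raw reads, a filter that by itself removed tcc-MIR167a-p3_1ss2TC and PC-5p-161243_22. It was 0 when the counting interval had to lie wholly beyond 2-fold. For 1 added, the filter of 50 reads and that interval, the share over all names was not computed. The fold of the summed guide reads, 1.04, was 1.13 with raw reads, 1.13 with listed reads and 1.06 with TMM factors, and reversed to 0.901 with only the names that match the genome stretch without mismatch, which leaves out both forms with G. The 24 h over 0 h ratio of the 22 nt form ending in CA to the 21 nt form with G, 0.580, was 0.700 against the 21 nt form ending in A and 0.627 against all other guide names. The partner ratios of both hairpins stayed within their counting intervals under the alternatives tried, and the range within the miR167 set was 0.79 with at least 1000 raw reads and 0.85 otherwise. The degradome site is of category 0, so that keeping only this category could not change it. The depth limits the partner strands, of which 2 had under 20 reads per library, and 1 library per storage time limits every comparison.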
